A study of Mus musculus with 6 samples.

Results

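The comparison described here is that of naive CD4 T cells from YAP cKO mice with naive CD4 T cells from wild type (WT) mice, as deposited in a table of FPKM (fragments per kilobase of a transcript relative to all mapped fragments). It covered the 10420 of 23926 genes in the table with an FPKM of at least 1 in either naive library, after the transcripts of each gene were summed. The YAP cKO animals were YAP flox/flox and CD4-Cre+, so that Cre driven by the CD4 promoter recombines the floxed allele in T cells, and both genotypes were of the C57BL/6 strain. The labels do not say whether the WT mice carried Cre or a floxed allele, how many mice gave each sample, or their age. Naive cells, which were CD4+ and CD25-, were sorted from lymph nodes and spleens, and frozen without stimulation. Total RNA was depleted of ribosomal RNA and sequenced from strand-specific libraries. There was 1 library per genotype and no replicate, so every difference below is a value without a test. The same 2 genotypes were also sequenced as freshly sorted natural regulatory T cells (nTregs, which were CD4+ with high CD25) and as nTregs stimulated with anti-CD3, anti-CD28 and IL-2, again with 1 library each, and those pairs are used here to set naive values beside other cells.

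YAP is a transcriptional co-activator at the end of the Hippo kinase cascade. The kinases MST1 and MST2 (genes Stk4 and Stk3) activate LATS kinases, which keep YAP out of the nucleus, and nuclear YAP acts through TEAD factors on genes such as Ccn1 and Ccn2. Naive CD4 T cells are resting lymphocytes that recirculate through lymphoid organs, and type I interferon and interferon-gamma, acting through JAK kinases, are among the signals that set their basal gene expression.

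The columns of 1 genotype carry the abbreviation YKP and were read as the cKO by elimination, since the others are named WT, so every direction given here rests on that reading. Yap1 (chr9:7931999-8004638, mm10) was listed at 0 FPKM in the cKO and at 0 in the WT naive library. On its transcript of 4171 nt, 3 fragments would have given 0.0840 FPKM in the cKO and 0.0991 in the WT library. Loss of Yap1 RNA was thus not detectable at this depth, because the WT library held none that could be seen. In fresh nTregs Yap1 was at 0 in both libraries, and in stimulated nTregs at 0.235 FPKM in the cKO and 0.169 in the WT library. In no pair was Yap1 RNA lower in the column read as cKO, so it does not bear out that reading. The related co-activator gene Wwtr1 (TAZ) and Tead4 were also listed at 0 in both.

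Both libraries had the markers of naive CD4 T cells at high and similar levels. Cd4 stood at 213 FPKM in the cKO and 220 in the WT library. Ccr7, the homing receptor for lymph nodes, stood at 279 in the cKO and 261 in the WT library. Il2ra, which encodes the excluded marker CD25, stood at 1.23 FPKM in the cKO and 0.486 in the WT library, from about 47 cKO and 16 WT fragments. Foxp3, the Treg lineage factor, was 3.30 in the cKO and 2.98 in the WT library. Of the B cell markers Ms4a1, which encodes CD20, was listed at 0 in the cKO and at 0.0687 in the WT library. Cd79a stood at 1.33 in the cKO and 0.785 in the WT library, and Cd74 at 4.26 in the cKO and 4.14 in the WT library. H2-Aa was 0.856 in the cKO and 1.16 in the WT library, so these markers did not share 1 direction. None of the erythroid markers found in the table reached 1 FPKM in either library. Cd8a was listed at 0 in the cKO and at 0.177 in the WT library, while Cd8b1 stood at 8.90 in the cKO and 8.01 in the WT library. Xist, made from the inactive X chromosome of female cells, was 8.76 in the cKO and 12.5 in the WT library, and the Y-linked gene Ddx3y was 64.4 in the cKO and 72.9 in the WT library, so RNA of both kinds was present in both libraries.

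**Figure D1:**
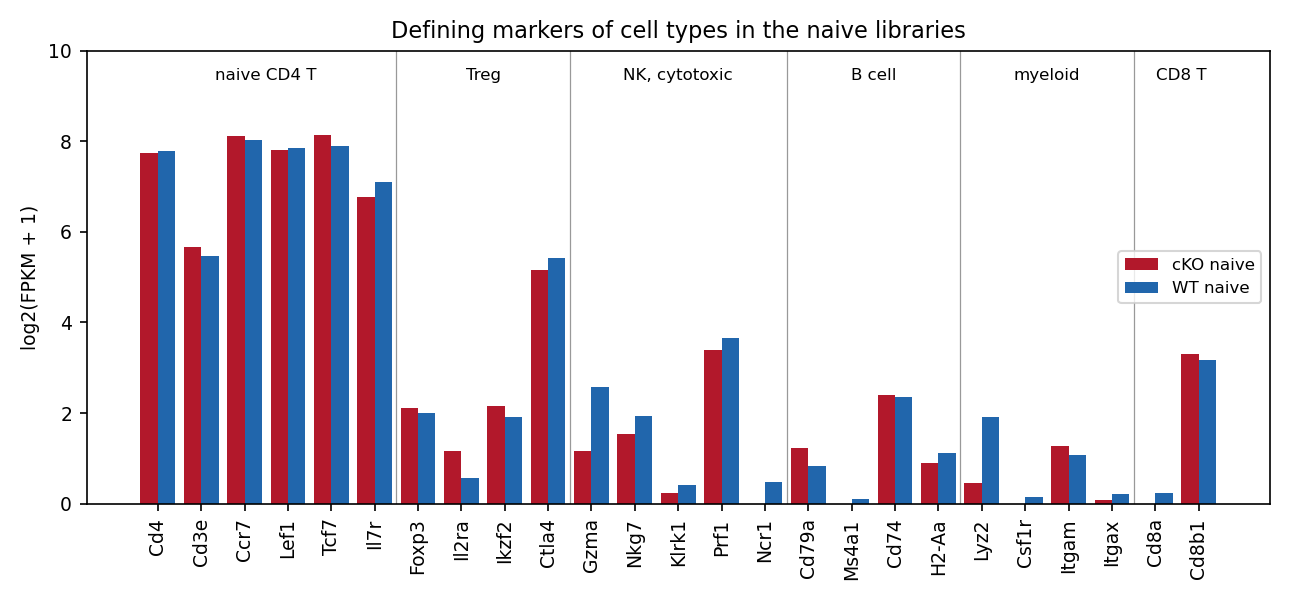
Defining markers of naive CD4 T cells and of other cell types, as log2(FPKM + 1) in the cKO (red, left bar) and WT (blue, right bar) naive libraries, 1 library each. Naive markers such as Ccr7 (279 FPKM in the cKO, 261 in the WT library) dominate both libraries, and Gzma (1.24 in the cKO and 4.96 in the WT library) and Lyz2 (0.372 in the cKO and 2.78 in the WT library) differ most among the markers of other cells.

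The libraries were alike in depth and composition. One fragment on a transcript of 1 kb was worth about 0.117 FPKM in the cKO and 0.138 in the WT library, so that a gene of 5 FPKM with a 2 kb transcript rested on about 85.6 fragments in the cKO and 72.6 in the WT library. FPKM of at least 1 was reached by 10195 genes in the cKO and 10214 in the WT library. Small RNAs and antigen receptor segments took 36.4% of the FPKM sum in the cKO and 36.2% in the WT library. The genes nearest to the minimum on the inside were Uhrf1bp1 (0.965 FPKM in the cKO, 1.00 in the WT library) and Gpr4 (0.565 in the cKO and 1.00 in the WT library), and nearest on the outside Cdca3 (1.00 in the cKO and 0.885 in the WT library, rounded) and Rhbdd3 (0.999 in the cKO and 0.592 in the WT library).

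Most genes had nearly the same level in both genotypes. Differences were taken as log2(FPKM + 1) in the cKO minus that in the WT library, which understates the fold of low genes, and their median over all 10420 genes was -0.00. Within 1.5-fold lay 96.0% of the genes. Higher at all in the cKO library were 49.8% and lower 50.2%, and these shares stand behind every count of list members below. At least 2-fold higher in the cKO library were 69 genes (0.662%), and 52 (0.499%) were at least 2-fold lower, 121 in all (1.16%). These genes were unevenly spread over kinds of RNA. Of 66 small RNAs 23 were 2-fold apart (34.8%), of 84 pseudogenes 11 (13.1%), of 358 long non-coding RNAs 11 (3.07%) and of 9814 protein coding genes 73 (0.744%). Small RNAs, of which few fragments can be read per transcript, are left out of what follows together with receptor segments. That left 59 genes 2-fold higher and 39 lower of 10353. Of these 98 genes, 51 had no FPKM of 5 or more in either library, 11 were listed at 0 in WT and 1 at 0 in the cKO. Counting intervals below are exact 95% intervals of the ratio of estimated fragments, given for genes with a single transcript long enough to estimate them. They cover counting error in these libraries and not the spread between mice.

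**Figure D2:**
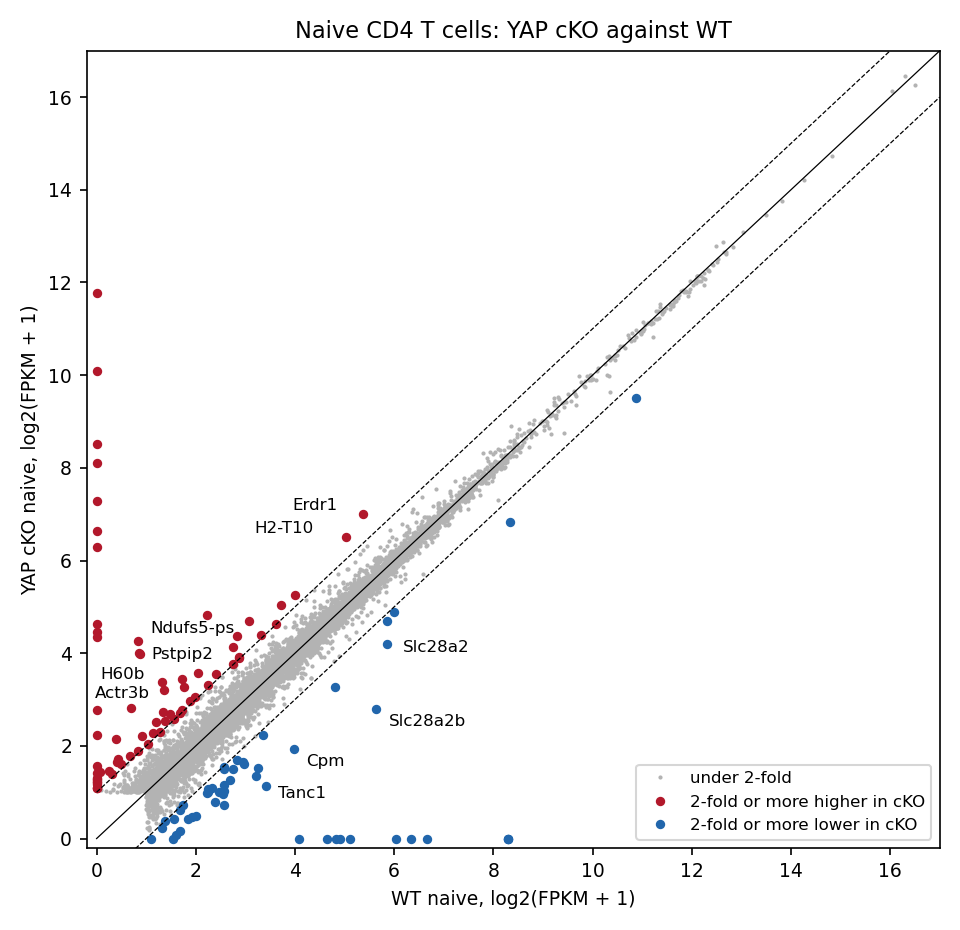
FPKM of each gene in the cKO (vertical) and WT (horizontal) naive libraries as log2(FPKM + 1), with lines of equality and of a 2-fold difference. Grey points lie within 2-fold, 69 red points at least 2-fold higher and 52 blue points at least 2-fold lower in the cKO library, and the points on either axis were listed at 0 in 1 library, many of them small RNAs.

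Interferon-response genes stood higher in the cKO library, most of them by less than 1.5-fold. All 26 measured genes of the interferon-gamma list (of 28 listed) were higher in cKO, with a median log2 difference of 0.42, where 49.8% of all genes were higher. Of the 53 measured genes of the type I interferon list (of 55 listed), 49 were higher and 4 lower, with a median of 0.28. At least 1.5-fold higher in FPKM + 1 were 10 of these 53, where 2.17% of all genes were, and 3 were at least 2-fold higher. Lists were chosen with earlier results of these data known, so these counts describe the libraries and are not an independent finding. In bulk RNA, more responding cells and more RNA per cell cannot be told apart.

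The promoters of 4 of these genes are shown because they carry the interferon-stimulated response element, a sequence bound by IRF factors. The core was searched as TTTC, any 2 bases and TTTC again, on both strands over the 250 bases before each annotated start, and matches are in capitals. The sequences are from RefSeq (GRCm38.p6), printed 5′ to 3′ along the gene's own strand, for Isg15 (chr4:156200819-156201068, minus strand), Rsad2 (chr12:26456453-26456702, minus strand), Ifit3 (chr19:34583279-34583528, plus strand) and Gbp2 (chr3:142620413-142620662, plus strand).
Isg15: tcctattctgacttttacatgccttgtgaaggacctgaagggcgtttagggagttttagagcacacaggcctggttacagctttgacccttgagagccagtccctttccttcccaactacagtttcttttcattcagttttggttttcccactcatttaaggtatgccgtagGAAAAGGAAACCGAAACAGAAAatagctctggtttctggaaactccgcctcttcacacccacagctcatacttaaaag
Rsad2: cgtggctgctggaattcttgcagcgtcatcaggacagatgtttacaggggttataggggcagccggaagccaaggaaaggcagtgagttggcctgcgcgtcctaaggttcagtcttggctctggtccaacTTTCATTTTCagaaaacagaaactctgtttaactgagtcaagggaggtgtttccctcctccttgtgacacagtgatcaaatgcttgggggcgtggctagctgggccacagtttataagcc
Ifit3: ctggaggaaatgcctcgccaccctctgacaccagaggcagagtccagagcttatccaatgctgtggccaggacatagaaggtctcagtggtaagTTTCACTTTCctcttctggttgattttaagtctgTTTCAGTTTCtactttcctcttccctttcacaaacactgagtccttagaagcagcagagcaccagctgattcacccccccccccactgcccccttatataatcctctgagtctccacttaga
Gbp2: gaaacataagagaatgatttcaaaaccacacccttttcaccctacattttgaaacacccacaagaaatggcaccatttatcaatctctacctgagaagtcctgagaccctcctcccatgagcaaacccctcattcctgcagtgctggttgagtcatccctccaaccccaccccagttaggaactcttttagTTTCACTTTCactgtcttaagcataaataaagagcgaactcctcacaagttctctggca
Isg15 had 3 overlapping matches on the reverse strand, of which the first began 78 bases before the start. Ifit3 had 2 separate matches, beginning 156 and 122 bases before the start, Rsad2 had 1 at 120 bases and Gbp2 1 at 59 bases. The core was found before at least 1 start in 936 of all 27025 genes in the RefSeq table (3.46%), measured here or not. Of the measured list genes with a promoter in the table, 15 of 39 had it in the type I list (38.5%) and 9 of 19 in the interferon-gamma list (47.4%). In the list of naive and quiescence genes 1 of 18 had it, in that of T cell receptor signalling 0 of 18 and among immediate early genes 2 of 19 (10.5%). The 24 interferon genes with the core had a median log2 difference of 0.48 between cKO and WT, within a range of -0.58 to 1.07. The 34 without it had a median of 0.20, within a range of -0.46 to 0.67. Genes of both interferon lists were pooled here, the ranges overlapped, and the difference between the medians was not tested. The other motif searched, TTCNNNGAA, bound by STAT dimers, reads the same on both strands. It was found in 8.13% of all genes of the RefSeq table, in 6 of 39 of the type I list (15.4%) and in 7 of 19 of the interferon-gamma list (36.8%). In the naive and quiescence list 3 of 18 had it (16.7%), in that of T cell receptor signalling 2 of 18 (11.1%) and among immediate early genes 1 of 19. The type I share was thus no higher than that of the naive and quiescence list. The interferon lists hold genes chosen for their response to interferon. Their motif shares describe those lists and not a difference between the genotypes. A match is a description of the letters and no measure of binding.

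Among the antiviral effectors, Rsad2 (viperin, an enzyme that makes a chain-terminating nucleotide) stood at 8.97 FPKM in the cKO and 3.76 in the WT library, from about 290 cKO and 103 WT fragments, a ratio of 2.39 with a 95% counting interval of 1.90 to 3.02. Isg15, a ubiquitin-like modifier, stood at 23.9 in the cKO and 11.3 in the WT library. The Ifit genes, whose proteins bind viral RNA, were not alike. Ifit3 stood at 34.7 in the cKO and 17.7 in the WT library, and Ifit3b at 7.26 in the cKO and 2.95 in the WT library, but Ifit2 at 42.2 in the cKO and 37.2 in the WT library, a log2 difference of 0.18. Mx1, a GTPase that blocks influenza virus, stood at 8.04 in the cKO and 3.86 in the WT library. Zbp1, a sensor of Z-form nucleic acid, stood at 74.0 in the cKO and 40.5 in the WT library. The oligoadenylate synthetase family, whose products switch on RNase L, went both ways: Oasl2 had a log2 difference of 0.67, while Oas1a was 4.41 in the cKO and 7.09 in the WT library, with a counting interval of the ratio from 0.45 to 0.85. Oasl1 stood at 4.32 in the cKO and 6.30 in the WT library. With Ifi44 (1.36 in the cKO and 1.99 in the WT library) and Ly6e (123 in the cKO and 125 in the WT library), Oas1a and Oasl1 made up the 4 type I genes that were lower in the cKO library.

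The genes that answer chiefly to interferon-gamma were led by GTPases of cell-autonomous immunity. Iigp1, which attacks the vacuoles of intracellular parasites, stood at 40.2 FPKM in the cKO and 19.9 in the WT library. Gbp2, a guanylate-binding protein, stood at 78.7 in the cKO and 42.7 in the WT library, a ratio of 1.84 with a counting interval of 1.69 to 2.01. Every measured Gbp gene of the list was higher in the cKO library, with Gbp4 at 76.8 in the cKO and 51.5 in the WT library as the next by size. Irgm2, Irgm1 and Igtp, regulators of the same GTPases, had log2 differences of 0.51, 0.45 and 0.57. Genes of antigen presentation on class I had smaller differences: Psmb9, an immunoproteasome subunit, was 97.2 in the cKO and 77.3 in the WT library, Tap1 was 120 in the cKO and 104 in the WT library, and H2-D1, a class I heavy chain, had a log2 difference of 0.04. Cd274, which encodes the checkpoint ligand PD-L1, was 18.3 in the cKO and 12.7 in the WT library. Gbp and Irgm genes have near copies among which fragments can be shared, so values of single members are less certain than the direction of the family.

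The brakes and transcription factors of the pathway differed by different amounts, and its receptor genes differed little. Stat2 stood at 18.7 FPKM in the cKO and 13.1 in the WT library. The log2 difference was 0.26 for Irf1, 0.25 for Irf7 and 0.06 for Irf9. The negative regulator Usp18 stood at 31.1 in the cKO and 19.7 in the WT library, with a counting interval of the ratio from 1.35 to 1.84. Socs1, an inhibitor of JAK kinases, stood at 27.7 in the cKO and 19.1 in the WT library. The receptor gene Ifnar1 was 34.0 in the cKO and 31.5 in the WT library, Ifngr1 was 83.5 in the cKO and 82.8 in the WT library, and the kinase gene Jak1 was 202 in the cKO and 229 in the WT library. Of the 20 genes of the list of interferon receptors, kinases and factors 18 were higher and 2 lower (49.8% and 50.2% of all genes), with a median of 0.16. This list shares members with the interferon lists above, so its count is not separate from theirs. Ifng itself was 0.954 in the cKO and 1.5 in the WT library.

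**Figure D3:**
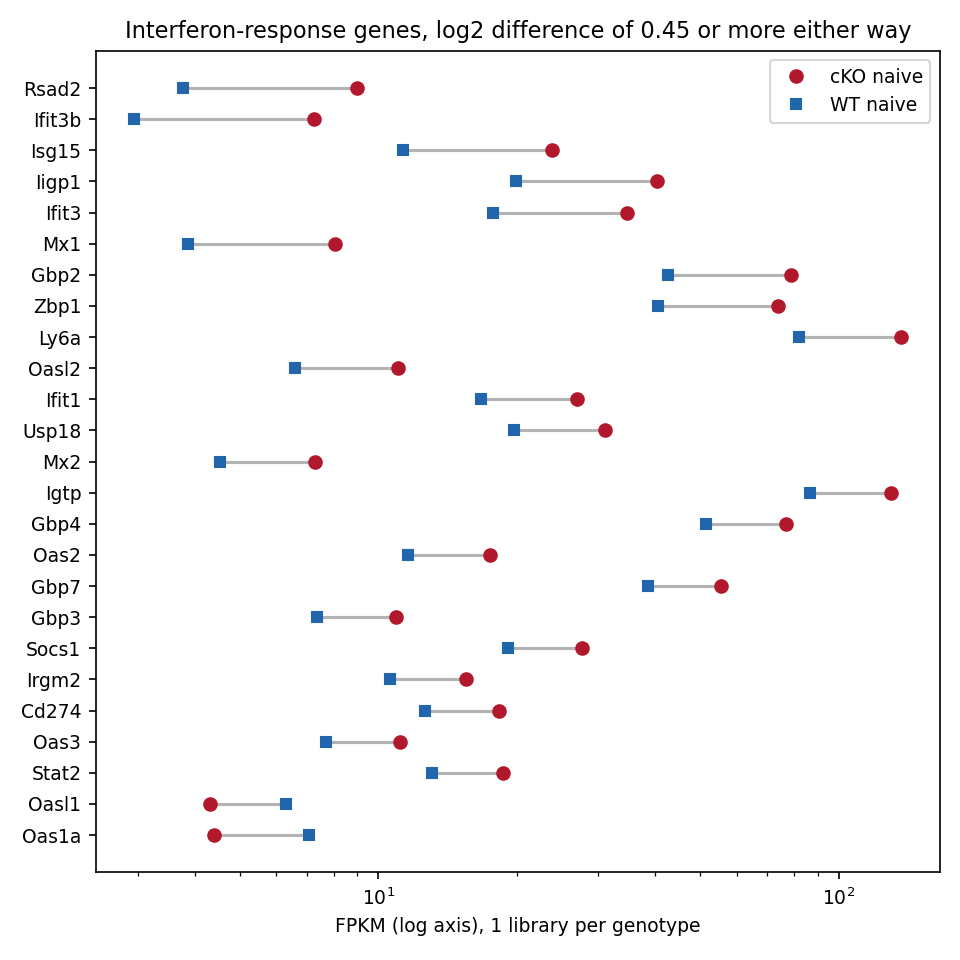
FPKM on a log axis in the cKO (red circles) and WT (blue squares) naive libraries of the 25 interferon-response genes with a log2 difference of 0.45 or more either way, 1 library per genotype. In 23 genes, from Rsad2 (8.97 in the cKO, 3.76 in the WT library) to Stat2 (18.7 in the cKO and 13.1 in the WT library), the cKO value is the higher, and in Oasl1 and Oas1a the lower.

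The nTreg pairs, which share no library with the naive pair, did not have the same shift in the type I list. In fresh nTregs its median log2 difference was -0.01, and 24 of 53 measured genes were higher in the cKO library, where 50% of all genes were. In stimulated cells the median was 0.11, and 26 of 47 were higher, where 55.2% of all genes were. Of the interferon-gamma list 21 of 27 genes were higher in fresh nTregs, with a median of 0.09, and 20 of 27 after stimulation, with a median of 0.26. Rsad2 had a log2 difference of 1.07 in the naive pair, 0.23 in the fresh and 0.01 in the stimulated nTreg pair. Isg15 had 1.02, 0.51 and 1.71 in the same order. Whether the pairs differ could not be tested.

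The largest differences in the naive pair were of genes with little in common by function. Pstpip2, an adaptor that binds the actin cytoskeleton and phosphatases, stood at 15.1 FPKM in the cKO and 0.805 in the WT library, from about 294 cKO and 13 WT fragments, a ratio of 18.8 with a counting interval of 11.04 to 36.44. H60b (chr10:22273474-22288849), a ligand of the NK cell receptor NKG2D, stood at 14.8 in the cKO and 0.831 in the WT library. Actr3b, a variant subunit of the actin-nucleating Arp2/3 complex, was 5.84 in the cKO library and listed at 0 in WT. The WT values of these 3 genes lay under 1 FPKM. Jaml, a junctional adhesion molecule of leukocytes, stood at 10.9 in the cKO and 3.11 in the WT library, with a counting interval of the ratio from 2.58 to 4.73. Rab4a, a GTPase of early endosome recycling, stood at 9.81 in the cKO and 2.30 in the WT library, and Mid1, an X-linked ubiquitin ligase gene, at 8.72 in the cKO and 2.40 in the WT library. Erdr1 stood at 127 in the cKO and 40.5 in the WT library. The long non-coding gene A930015D03Rik (24.9 in the cKO, 7.44 in the WT library), 5430417L22Rik (19.7 in the cKO and 6.08 in the WT library), whose kind of RNA is not assigned, and the pseudogene Gm10653 (6.00 in the cKO and 0.611 in the WT library) were among the 15 largest as well.

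Others of the genes highest in the cKO library share sequence with a copy. Ndufs5-ps, a pseudogene of a subunit of respiratory complex I, stood at 18.1 FPKM in the cKO and 0.791 in the WT library. Its sum with the parent Ndufs5 was 40.5 in the cKO and 26.4 in the WT library, a log2 difference of 0.60. Eno1b, a copy of the glycolytic enzyme gene Eno1, stood at 27.4 in the cKO and 3.66 in the WT library, but the sum of both was 181 in the cKO and 175 in the WT library, a log2 difference of 0.05. How the fragments were shared between such copies is set by the authors' quantification.

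Outside small RNAs, the largest difference lower in the naive cKO library was that of a nucleoside transporter gene, Slc28a2b (chr2:122484941-122528040), which stood at 5.95 FPKM in the cKO and 48.8 in the WT library, from about 191 cKO and 1323 WT fragments, a ratio of 0.12 with a counting interval of 0.10 to 0.14. Its neighbour Slc28a2 (chr2:122426357-122461152), a sodium-coupled carrier of purine nucleosides, stood at 17.4 in the cKO and 56.6 in the WT library, with a counting interval of 0.28 to 0.34. These 2 genes are near copies, and their sum was 23.3 in the cKO and 105 in the WT library, so the difference remained in the sum. No other measured gene of the nucleoside and purine list was 1.5-fold apart: the equilibrative transporter gene Slc29a1 was 11.2 in the cKO and 11.1 in the WT library, and the kinase gene Dck was 16.8 in the cKO and 20.7 in the WT library. Tanc1, a scaffold protein gene, stood at 1.20 in the cKO and 9.62 in the WT library, with a log2 difference of -2.27 over its 2 transcripts and of -1.28 in the leading one. Cpm, a membrane carboxypeptidase gene, stood at 2.79 in the cKO and 14.8 in the WT library, with a counting interval of 0.15 to 0.23.

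Other genes lower in the cKO library included regulators and lipid genes. Map7, which stabilises microtubules, stood at 1.86 FPKM in the cKO and 8.53 in the WT library. Klf9, a transcription factor induced by glucocorticoids and thyroid hormone, stood at 2.16 in the cKO and 6.78 in the WT library, with a counting interval of the ratio from 0.24 to 0.41. Abca1, the cholesterol exporter induced by LXR, stood at 3.71 in the cKO and 9.23 in the WT library. Dntt, the terminal transferase of thymocytes that adds bases at V(D)J junctions, stood at 2.25 in the cKO and 6.12 in the WT library. Ccdc117 had the highest level of the 15 genes lowest in cKO, at 28.7 in the cKO and 62.5 in the WT library. Rab20 (1.40 in the cKO, 5.42 in the WT library), Unc5cl (1.85 in the cKO and 5.68 in the WT library), E030030I06Rik (2.04 in the cKO and 6.85 in the WT library) and the pseudogenes Atp6v0c-ps2 (8.66 in the cKO and 27.1 in the WT library) and Bambi-ps1 (24.7 in the cKO and 56.9 in the WT library) completed that set with the histone gene H4c11 (1.56 in the cKO and 8.22 in the WT library).

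Some of the genes that were 2-fold apart lay near each other. Of the 98 genes, 95 had a position, and 29 of them lay within 1 Mb of another, in 10 clusters on 6 chromosomes. How many would do so if placed at random was not computed. Each stretch below runs between its outermost 2-fold genes, so its share of such genes is high by construction. Of all 10353 measured genes 0.947% were 2-fold apart. On chr2:122234839-122528040, 4 of 5 measured genes were 2-fold apart: Sord, a polyol dehydrogenase gene, stood at 5.83 FPKM in the cKO and 2.29 in the WT library, while Slc28a2, Bambi-ps1 and Slc28a2b were lower in cKO. On chr10:22113050-22407470, 3 of 4 measured genes were apart, with H60b higher in cKO between E030030I06Rik and Gm10825 (0.951 in the cKO, 4.85 in the WT library), which were lower. On chr4:147132093-147822202, 3 of 4 measured genes were apart, with the zinc finger genes Zfp534 (3.44 in the cKO, 0.313 in the WT library) higher and Zfp991 (1.04 in the cKO and 4.95 in the WT library) lower. In these 3 clusters, neighbouring genes stood apart in opposite directions. On chr17:6429530-6961565 3 of 7 measured genes were apart and all 3 were higher in cKO, among them Tagap1 at 32.1 in the cKO and 12.1 in the WT library, with a counting interval of 2.26 to 3.13. The other 6 clusters ranged from Casp1 and Casp4, with no other measured gene between them, to 2 of 21 measured genes in a histone cluster on chromosome 13. Slc28a2 and the histone and H2-T genes are tandem copies, between which the authors' alignment can divide fragments.

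Around Yap1 itself, 12 other measured genes started within 5 Mb, and 2 of them were 2-fold apart, where 0.947% of all measured genes other than small RNAs and receptor segments were. These were the inflammatory caspase genes Casp1 (chr9:5298517-5307281), at 0.736 FPKM in the cKO and 4.25 in the WT library, and Casp4 (chr9:5308849-5336791), at 0.348 in the cKO and 2.57 in the WT library. The genes next to Yap1 did not have this difference: Birc3 was 54.3 in the cKO and 52.8 in the WT library, Birc2 was 79.7 in the cKO and 79.0 in the WT library, and Tmem123 was 106 in the cKO and 75.2 in the WT library. Casp4 was also lower in the cKO library in fresh nTregs, by a log2 difference of -1.91, and in stimulated nTregs, by -2.46. Other genes of pyroptosis were alike in the naive libraries, with Gsdmd, the pore-forming gasdermin gene, at 40.6 in the cKO and 39.4 in the WT library and Pycard, the inflammasome adaptor gene, at a log2 difference of -0.01.

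Class Ib histocompatibility genes and NKG2D ligands differed widely among themselves. Of 14 measured members of that list, 8 were higher and 6 lower in the cKO library, with a median log2 difference of 0.23. H2-T10 (chr17:36115871-36121444) stood at 89.5 FPKM in the cKO and 31.8 in the WT library, although its leading transcript alone had a log2 difference of 0.71. Its neighbour H2-T3, a gene of the thymic leukaemia antigen, stood at 1.42 in the cKO and at 0 in WT. H2-T22 stood at 131 in the cKO and 81.3 in the WT library, and H2-T24 at 55.7 in the cKO and 32.1 in the WT library. H2-T23, which encodes Qa-1, was the same in both, at 251 in the cKO and 252 in the WT library. Against these, Ulbp1, another NKG2D ligand gene, was 3.33 in the cKO and 5.97 in the WT library, and H2-M3, which presents formylated peptides, was 22.7 in the cKO and 30.2 in the WT library. The H2-T genes are near copies, so that fragments may be divided differently between them.

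Replication-dependent histone genes also went both ways, 17 higher and 16 lower of 33 measured, with a median of 0.09. H2bc13 stood at 9.37 FPKM in the cKO and 1.5 in the WT library, H2ac4 at 8.27 in the cKO and 1.56 in the WT library, and H4c9 at 20.1 in the cKO and 8.98 in the WT library. H2bc12 was 3.70 in the cKO library and listed at 0 in WT. H4c11 was the only 1 of the 33 at least 2-fold lower in cKO. Summed over the list, histone genes held 1487 FPKM in the cKO and 1402 in the WT library, a log2 difference of 0.08. Histone genes have near-identical copies in clusters on chromosome 13, and single members are uncertain.

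The genes of the naive state and of T cell receptor signalling were close to even. Of 21 genes of the naive and quiescence list, 13 were higher and 8 lower in the cKO library, with a median log2 difference of 0.08. Dapl1, a death-associated protein gene, was the only one 1.5-fold apart, at 186 FPKM in the cKO and 113 in the WT library. Igfbp4, which binds insulin-like growth factors, stood at 480 in the cKO and 325 in the WT library. The factor genes Tcf7 (282 in the cKO, 236 in the WT library) and Lef1 (224 in the cKO and 229 in the WT library) were close in both, and Il7r, the receptor for the survival cytokine IL-7, was 108 in the cKO and 136 in the WT library. All 25 measured genes of T cell receptor signalling lay within 1.5-fold, between -0.09 and 0.19 in log2, as did 96.0% of all genes. Lck, the proximal kinase gene, stood at 403 in the cKO and 355 in the WT library and Zap70 at 88.8 in the cKO and 85.9 in the WT library.

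Lists of recent stimulation were uneven. Of the 23 measured genes of the list induced by T cell receptor stimulation 13 were higher and 10 lower in the cKO library, with a median log2 difference of 0.10. Of 14 measured genes of the IL-2 and STAT5 list 13 were higher (49.8% of all genes were), with a median of 0.25. Myc stood at 23.1 FPKM in the cKO and 14.9 in the WT library, a log2 difference of 0.60, but of 0.06 in its leading transcript alone. Bcl2, which guards survival, stood at 69.8 in the cKO and 59.4 in the WT library. Xbp1 was the exception, at 34.2 in the cKO and 49.7 in the WT library. Of 25 immediate early genes 17 were higher and 8 lower (49.8% and 50.2% of all genes), with a median of 0.18. Fos stood at 318 in the cKO and 222 in the WT library, Fosb at 24.4 in the cKO and 14.8 in the WT library, and Zfp36, which speeds the decay of cytokine mRNA, at 110 in the cKO and 70.8 in the WT library, while Jun was 165 in both and Dusp5 was 92.3 in the cKO and 116 in the WT library. Cd69, an early activation marker, stood at 294 in the cKO and 234 in the WT library, and Nr4a1, which follows T cell receptor signals, at 123 in the cKO and 97.3 in the WT library. Immediate early genes also answer to the handling of cells, and the heat shock gene Hspa1a stood at 7.17 in the cKO and 3.25 in the WT library, although 9 of 12 heat shock genes were lower and Hspa8, the most abundant, was 1529 in the cKO and 1615 in the WT library. Their part in these differences was not tested.

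**Figure D4:**
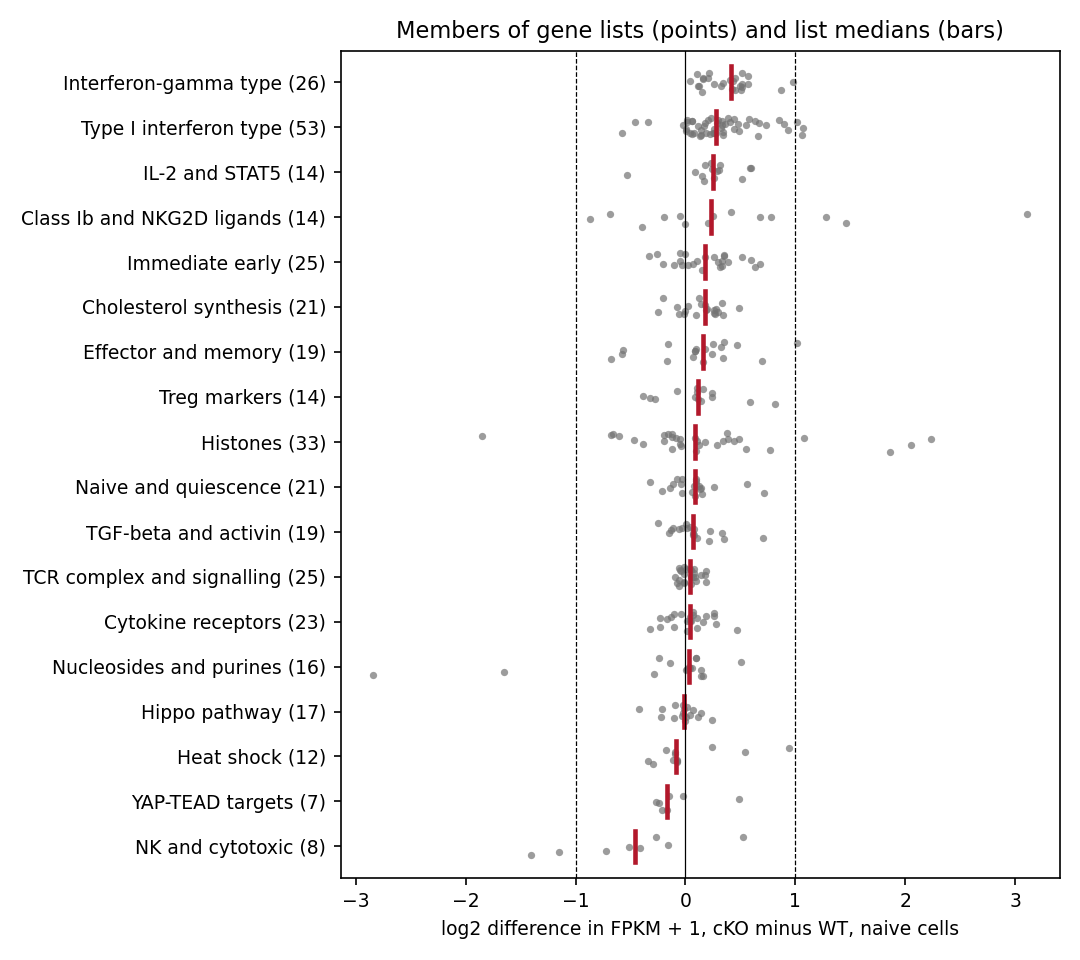
Log2 difference in FPKM + 1 (cKO minus WT, naive cells) of each measured gene of 18 lists, with the list median as a red bar and the number of measured genes in brackets. Interferon lists lie to the right (medians of 0.42 and 0.28), the lists of T cell receptor signalling and the Hippo pathway near 0, and NK and cytotoxic genes to the left (-0.46). Points are shifted up and down at random for legibility.

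Effector and memory genes were mixed, with 14 higher and 5 lower of 19 measured (49.8% and 50.2% of all genes) and a median of 0.16. Anxa2 stood at 12.6 FPKM in the cKO and 5.71 in the WT library, S100a4 at 12.8 in the cKO and 7.54 in the WT library, and Vim, the intermediate filament gene, at 208 in the cKO and 150 in the WT library. Cd44, the surface marker of antigen-experienced T cells, was lower, at 4.97 in the cKO and 7.89 in the WT library, as were S100a6 (5.43 in the cKO and 8.53 in the WT library) and the factor gene Eomes (1.21 in the cKO and 2.53 in the WT library). In fresh nTregs 23 of 24 genes of the same list were higher, where 50% of all genes were, with a median of 0.54. In stimulated nTregs 22 of 24 were higher, with a median of 0.56, where 55.2% of all genes were higher and their median was 0.04. Among factors of helper lineages, Runx3 stood at 5.53 in the cKO and 3.03 in the WT library, with a counting interval of 1.41 to 2.40. Gata3 stood at 13.5 in the cKO and 9.91 in the WT library, and Irf4 at 15.8 in the cKO and 10.8 in the WT library.

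NK and cytotoxic genes were lower in the cKO library in 7 of 8 measured cases, where 50.2% of all genes were lower, with a median log2 difference of -0.46. Gzma, a granzyme gene, stood at 1.24 FPKM in the cKO and 4.96 in the WT library. Xcl1, a chemokine gene, stood at 0.334 in the cKO and 1.97 in the WT library, and Tyrobp, the adaptor DAP12 of NK and myeloid receptors, at 1.40 in the cKO and 2.96 in the WT library. Gzmm was the gene that was higher, at 1.77 in the cKO and 0.930 in the WT library. Their summed level, over all 19 listed genes, was 28.0 FPKM in the cKO and 44.1 in the WT library. Of the 19, 5 were listed at 0 in the cKO and 1 in the WT library. Among all 23926 genes of the deposited table, 9873 were listed at 0 in the cKO and 10100 in the WT library. The defining NK receptor gene Ncr1 was at 0 in the cKO and 0.401 in the WT library. Their part in other differences was not tested.

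Markers of other cells did not share 1 direction. The 20 myeloid and dendritic genes summed to 200 FPKM in the cKO and 177 in the WT library, of which Ctss alone gave 191 in the cKO and 168 in the WT library. Lyz2, the macrophage lysozyme gene, stood at 0.372 in the cKO and 2.78 in the WT library, and Fcgr3, an Fc receptor gene, at 3.43 in the cKO and 1.43 in the WT library. Csf1r was listed at 0 in the cKO and 0.105 in the WT library. The 16 B cell genes summed to 8.99 in the cKO and 9.94 in the WT library. Of 20 Treg genes 14 were measured, with 10 higher and 4 lower and a median of 0.11: Gpr83 stood at 6.11 in the cKO and 3.05 in the WT library, and Izumo1r (folate receptor 4) at 30.5 in the cKO and 40.2 in the WT library. The part of any such cells in the differences above was not tested.

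Genes of the Hippo pathway had close to the same level in both libraries. Of 29 Hippo genes 17 were measured, of which 7 were higher and 10 lower in the cKO library, none 1.5-fold apart (2.17% of all genes were 1.5-fold higher and 1.81% lower), with a median of -0.01. Stk4, which encodes MST1, stood at 163 FPKM in the cKO and 165 in the WT library, and Stk3, which encodes MST2, at 2.60 in the cKO and 3.83 in the WT library, the largest difference of the list. Lats1 was 14.9 in the cKO and 15.1 in the WT library, Mob1a 97.0 in the cKO and 97.5 in the WT library, and Taok2, a kinase upstream of MST, 19.5 in the cKO and 16.4 in the WT library. Of the 22 YAP-TEAD target genes only 7 reached 1 FPKM, and the classical targets Ccn1, Ccn2 and Ankrd1 were listed at 0 in both libraries. Of those 7, 6 were lower and 1 was higher (50.2% of all genes were lower), with a median of -0.17. None of the 7 was 1.5-fold apart, and without an FPKM minimum the median was -0.02 over 13 genes. Nt5e, the ectonucleotidase CD73, stood at 12.9 in the cKO and 15.4 in the WT library, and Gadd45b at 34.2 in the cKO and 24.0 in the WT library.

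Of 19 measured TGF-beta and activin genes 13 were higher and 6 lower, with a median of 0.07. Id1, a target of BMP signals, stood at 2.30 FPKM in the cKO and 1.02 in the WT library, while the receptor gene Tgfbr2 was 141 in the cKO and 135 in the WT library and Smad7 was 128 in the cKO and 127 in the WT library. Cholesterol synthesis genes were higher in 15 of 21 cases (49.8% of all genes were), with a median of 0.18. Sqle, squalene epoxidase, stood at 11.1 in the cKO and 7.58 in the WT library. Glycolysis (17 measured, median -0.00), proliferation (19, 0.07), checkpoint and costimulation (16, -0.01), cytokines (11, -0.01) and cell survival (19, 0.01) had medians within 0.10 of that of all genes. Among cytokine receptors (23 measured, median 0.04), Il10ra stood at 9.07 in the cKO and 6.27 in the WT library. Of 8 Gimap genes, GTPases of lymphocyte survival, 6 were lower, with Gimap7 at 27.4 in the cKO and 43.1 in the WT library and a median of -0.10.

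Some of the genes 2-fold apart in naive cells were apart the same way in nTregs of the same genotypes. Of the 59 that were higher in naive cells, 25 were also 2-fold higher in the cKO library of fresh nTregs (42.4% of the naive list, 43.9% of the 57 of fresh nTregs). In stimulated nTregs 22 were (37.3% of the naive list, 19.5% of the 113 of stimulated nTregs). Of the 39 lower genes, 15 were 2-fold lower in fresh nTregs (38.5% of the naive list, 46.9% of 32) and 9 in stimulated nTregs (23.1%, and 13.4% of 67). Over all genes, here with the small RNAs and receptor segments that the lists leave out, 0.635% were 2-fold higher and 0.377% lower in fresh nTregs. After stimulation these shares were 1.18% and 0.694%. The libraries of the 3 pairs are separate, but whether they came from the same mice is not given. In fresh nTregs Xist was 3.21 FPKM in the cKO and 30.0 in the WT library, and Ddx3y was 79.0 in the cKO and 59.8 in the WT library. In stimulated nTregs Xist was 3.43 in the cKO and 21.1 in the WT library, and Ddx3y was 45.5 in the cKO and 33.2 in the WT library. Both nTreg pairs thus differed in sex-linked RNA by more than the naive pair, and the part of this in their values was not tested. At least 2-fold apart the same way in all 3 pairs were 16 higher and 6 lower genes of 9892 measured in each.

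Those 22 genes included 9 of the 15 largest differences higher in naive cKO cells and 2 of the 15 largest lower. Several are near copies of other genes, among them Ndufs5-ps, Eno1b, Slc28a2, H2-T10 and the histone genes. Summed with Eno1, Eno1b had log2 differences of 0.05 in the naive, 0.04 in the fresh and 0.35 in the stimulated nTreg pair. In the same order, Ndufs5-ps with Ndufs5 had 0.60, -0.05 and 1.64, and Slc28a2 with Slc28a2b had -2.13, -1.44 and -0.82. Pstpip2 had a log2 difference of 3.16 in the naive, 2.42 in the fresh nTreg and 2.29 in the stimulated nTreg pair. H60b had 3.11, 2.25 and 2.57 in that order, and H2-T10 1.46, 1.32 and 1.96. Sytl1, a gene of vesicle traffic, stood at 16.5 FPKM in the cKO and 5.76 in the WT naive library and had 1.37, 1.14 and 1.28. Of the lower genes, Rab6b, a neuronal form of a Golgi GTPase, stood at 1.01 in the cKO and 4.54 in the WT naive library and had -1.46, -1.72 and -1.57. Slc28a2 had -1.65, -1.36 and -1.06, and Jmjd7, a lysyl hydroxylase gene, -1.24, -1.42 and -2.16. The interferon genes named above were not in this set. Slc28a2b, at -2.84 in the naive pair, was also 2-fold lower in fresh nTregs (-1.54) and had 0.17 in the stimulated pair. 5430417L22Rik, at 1.55 in the naive pair, was under 2-fold in both nTreg pairs (0.40 fresh, 0.05 stimulated).

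**Figure D5:**
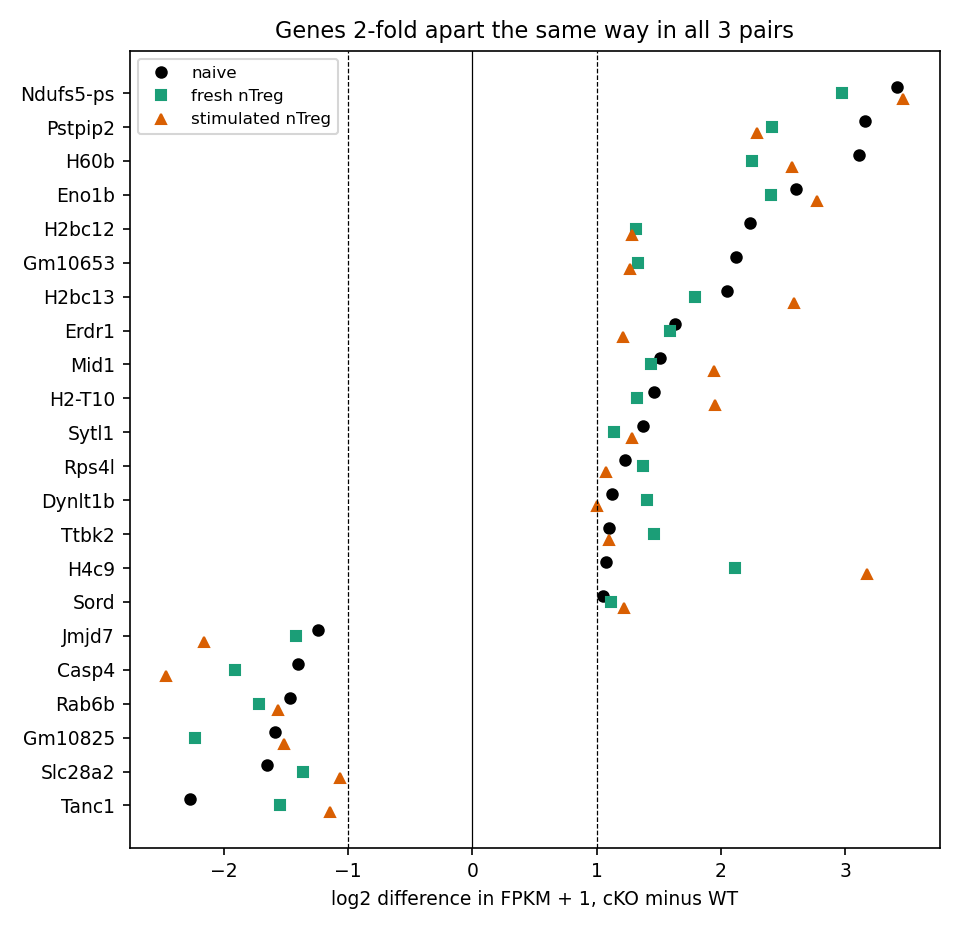
Log2 difference in FPKM + 1 (cKO minus WT) for naive cells (black circles), fresh nTregs (green squares) and nTregs after stimulation (orange triangles), of the 22 genes at least 2-fold apart the same way in all 3 pairs, 1 library per genotype and pair. The 16 higher genes run from Ndufs5-ps (3.42 in naive cells) to Sord (1.05), and the 6 lower genes from Tanc1 (-2.27) to Jmjd7 (-1.24). Values are not summed with near copies, such as those of Ndufs5-ps, Eno1b, Slc28a2, H2-T10 and the histone genes.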

How the data were processed

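The authors deposited 1 table of FPKM per RefSeq transcript for 6 libraries. The submitters' processing notes name FastQC, TopHat, Cuffdiff, Cuffnorm and the mm10 build. Their versions and the strand setting are not given in the sources used here. Per the labels' protocols, 322 ng of total RNA and 12 PCR cycles went into each library. As all FPKM of a library share 1 scale, a few abundant RNAs can shift the others, and the FPKM sums were 962865 in the cKO and 968967 in the WT naive library. As no replicate exists, p-values and count models were not used.

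The 32860 rows held 32547 transcripts. The 165 that were listed more than once had identical values and were kept once. Blank symbols (3495) and symbols turned into dates (46) were filled from RefSeq, by which 32101 transcripts were matched, and 49 kept no name. FPKM was summed per gene, and differences are log2(FPKM + 1), cKO minus WT. The worth of 1 fragment was estimated from the steps between low FPKM values of single-transcript genes. In the cKO library 84.4% and in the WT library 85.2% of these values lay within 10% of whole fragments. The tolerance thus widens with the number of fragments. As the worth was estimated from the same values, these shares are no independent check of it. Exact 95% Clopper-Pearson intervals of the fragment ratio are given for genes with 1 transcript of at least 1500 nt, since estimates for shorter ones are biased. PCR copies were not marked, so these intervals cover counting error alone. The interval function was tested on simulated data with known fragment numbers. That test does not cover the step of estimating fragments from FPKM.

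The members and all 40 gene lists were chosen with earlier results of these data known, so lists are described by counts and medians without a test. Genes were named by a rule: Yap1, the 15 largest differences each way among genes of at least 5 FPKM in either library, up to 6 members per list at least 1.5-fold apart, cell type markers, near copies and neighbours within 1 Mb, and genes 2-fold apart in all 3 pairs. Values of 3 of the markers and list members are not reported here. Other list members were picked as examples after their values were seen. Alternatives were another pseudocount, other FPKM minimums, other scalings, the leading transcript alone, reference symbols and a 1.5-fold threshold. Analyses used Python 3.11.15 with pandas 2.3.3, numpy 2.4.6 and scipy 1.17.1.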

Additional observations from a re-analysis of the deposited data

Results flagged for a closer look

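Differences past 2-fold in FPKM + 1 that pointed the opposite way in another pair of libraries were found for 4 genes. Cox7a1, a subunit gene of cytochrome c oxidase, had a log2 difference (cKO minus WT) of 1.09 in naive cells and -1.07 in fresh nTregs. D330023K18Rik, a long non-coding gene, had -1.85 in naive cells and 1.47 in fresh nTregs. Gm21992 had 1.32 in naive cells and -1.49 in stimulated nTregs. A transcript with no gene name had -1.55 in naive cells and 1.41 in stimulated nTregs. Among the gene lists, NK and cytotoxic genes had a median of 0.40 in stimulated nTregs, where all 7 measured genes were higher in the cKO library, and of -0.46 in naive cells. None of these differences between pairs was tested, since each rests on 1 library per genotype.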

How the results depend on the processing

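No paired analysis was possible because each group has 1 library, and for the same reason no replicate could be left out. Counts of genes at least 2-fold apart followed the treatment of low values and of transcripts. At 69 genes higher in the cKO library with the settings used, they were 140 with a pseudocount of 0.1, 42 of 8104 genes with an FPKM minimum of 5, and 115 of 10371 with the leading transcript of each gene. The counts of genes lower in cKO, 52 with the settings used, were 127, 28 and 96 in the same order. The other 10 recomputed counts stayed within 1.5 times these values. Under both other scalings, levels shifted by 0.01 in log2. Without an FPKM minimum, the myeloid list median turned from 0.19 to -0.12 and that of the class Ib list from 0.23 to 0.00. The interferon list medians kept their direction under every alternative run. Of the named genes, 22 recomputed values moved beyond their counting interval (beyond 1.5-fold where a gene had none) and 456 did not. With the leading transcript alone, Ttbk2 had 0.07 in place of 1.10. Of the 98 genes 2-fold apart that are neither small RNAs nor receptor segments, 51 had no FPKM of 5 or more, where depth limits the precision.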

Other observations

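Some genes kept their summed level while their transcripts traded places. Of 1685 genes with at least 10 FPKM in both naive libraries and sums within 1.5-fold, 10 (0.593%) had a transcript whose share of the gene's FPKM differed by at least 50 percentage points. In Jade1, a subunit gene of a histone acetyltransferase complex, 1 transcript held 8.12% in the cKO and 81.1% in the WT library. In Shoc2, a scaffold gene of the RAS to MAP kinase pathway, 1 transcript held 97.7% in the cKO and 45.7% in the WT library. In Ino80d, of the INO80 remodelling complex, 1 transcript held 37.8% in the cKO and 94.0% in the WT library. In Hdac5, a class IIa histone deacetylase gene, 1 transcript held 59.1% in the cKO and 0.0187% in the WT library. These genes were picked after their values were seen, and the shares are those that the authors' quantification gave to overlapping transcripts in 1 library per genotype.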
